A study of Homo sapiens with 2 samples.

Results

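NeuroD1 binding near the genes of 10 mesenchymal-state transcription factors was examined in IMR-32 cells. The factors were PRRX1, FOSL1, FOSL2, RUNX1, RUNX2, SNAI2, TWIST1, YAP1, WWTR1 and TEAD4. Every NeuroD1 ChIP-seq peak that overlapped the RefSeq body of one of these genes, or lay up to 50 kb from either end, was taken. This rule gave 4 of the 6183 peaks in the list, at 3 of the 10 genes, which were FOSL1, FOSL2 and TWIST1. No peak lay in the windows of PRRX1, RUNX1, RUNX2, SNAI2, YAP1, WWTR1 or TEAD4.

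IMR-32 is a human neuroblastoma cell line with amplified MYCN, and its genotype was labelled WT. The series holds 1 library made with a NeuroD1 antibody and 1 input library from untreated chromatin of the same line, and the latter was not analysed here. The supplementary ChIP-seq methods name an H3K27Ac antibody, whereas the sample label names NeuroD1, and the list was used as labelled. There was no replicate, so no value below has a replicate error, no test was run, and intervals cover counting error only. The peak list holds no expression values, so the labelled cell type could not be checked against marker genes.

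Neuroblastoma cells can occupy an adrenergic state, held by factors such as HAND2 and GATA3, or a mesenchymal state that resembles neural crest cells. PRRX1 and AP-1, RUNX and TEAD family factors are among those that mark the mesenchymal state, and IMR-32 is usually counted among the adrenergic lines. NeuroD1 is a neurogenic basic helix-loop-helix factor that binds E-boxes, which have the letters CANNTG, with a preference for CAGATG and CAGCTG.

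The sequences below show the 2 promoter windows that held the summit of a peak in this set, followed by 2 windows of member genes that no peak reached. Each is the RefSeq window of GRCh38.p14 from 250 bases before to 50 bases after a gene start, written 5′ to 3′ on the strand of the gene. Capitals mark every CANNTG, which reads the same on both strands.
FOSL2, chr2:28392608-28392907, forward strand: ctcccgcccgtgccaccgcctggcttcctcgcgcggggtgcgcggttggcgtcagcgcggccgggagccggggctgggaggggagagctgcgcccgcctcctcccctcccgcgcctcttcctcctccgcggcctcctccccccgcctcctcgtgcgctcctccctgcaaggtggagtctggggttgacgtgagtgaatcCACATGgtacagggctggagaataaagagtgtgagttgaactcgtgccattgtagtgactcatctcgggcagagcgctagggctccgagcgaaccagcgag
DRAP1, chr11:65919176-65919475, forward strand: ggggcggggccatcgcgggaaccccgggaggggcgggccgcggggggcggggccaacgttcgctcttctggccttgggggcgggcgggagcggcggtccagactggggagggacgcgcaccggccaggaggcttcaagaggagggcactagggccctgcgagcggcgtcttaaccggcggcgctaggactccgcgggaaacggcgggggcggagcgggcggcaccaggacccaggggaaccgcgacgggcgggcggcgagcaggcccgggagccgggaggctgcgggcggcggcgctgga
RUNX2 at its second listed start, chr6:45422025-45422324, forward strand: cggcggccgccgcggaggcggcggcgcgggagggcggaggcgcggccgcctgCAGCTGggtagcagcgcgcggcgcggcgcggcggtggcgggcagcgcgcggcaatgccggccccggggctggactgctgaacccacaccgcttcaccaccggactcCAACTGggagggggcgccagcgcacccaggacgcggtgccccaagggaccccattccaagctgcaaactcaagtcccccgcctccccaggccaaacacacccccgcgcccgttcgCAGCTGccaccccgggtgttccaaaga
YAP1, chr11:102110197-102110496, forward strand: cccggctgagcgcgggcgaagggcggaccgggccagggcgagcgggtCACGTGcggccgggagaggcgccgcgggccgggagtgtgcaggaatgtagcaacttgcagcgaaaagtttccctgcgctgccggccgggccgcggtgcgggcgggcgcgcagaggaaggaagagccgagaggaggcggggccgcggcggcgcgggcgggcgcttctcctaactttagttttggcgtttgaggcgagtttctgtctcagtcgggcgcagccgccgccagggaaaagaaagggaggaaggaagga
The FOSL2 and DRAP1 windows held a peak summit, at bases 145 and 186 respectively, and neither had a CANNTG within 50 bases of it. The RUNX2 window held 3 of these motifs, 2 of them CAGCTG, and lay 609 kb from the nearest peak.

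Of the 10 members, 3 had a peak within 50 kb (30.0%), against 40.0% of the 19974 protein-coding genes on the 23 chromosomes with peaks. Only 1 member had a peak that overlapped its gene body, which was FOSL2, against 16.1% of the protein-coding genes. The number of members with a peak was therefore near or below the background of the list. The median distance from a member to its nearest peak was 151 kb, and the median of all protein-coding genes was 94.9 kb. For 4 members, which were SNAI2, WWTR1, RUNX2 and YAP1, that distance was over 300 kb, as it was for 27.9% of the protein-coding genes.

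**Figure D1:**
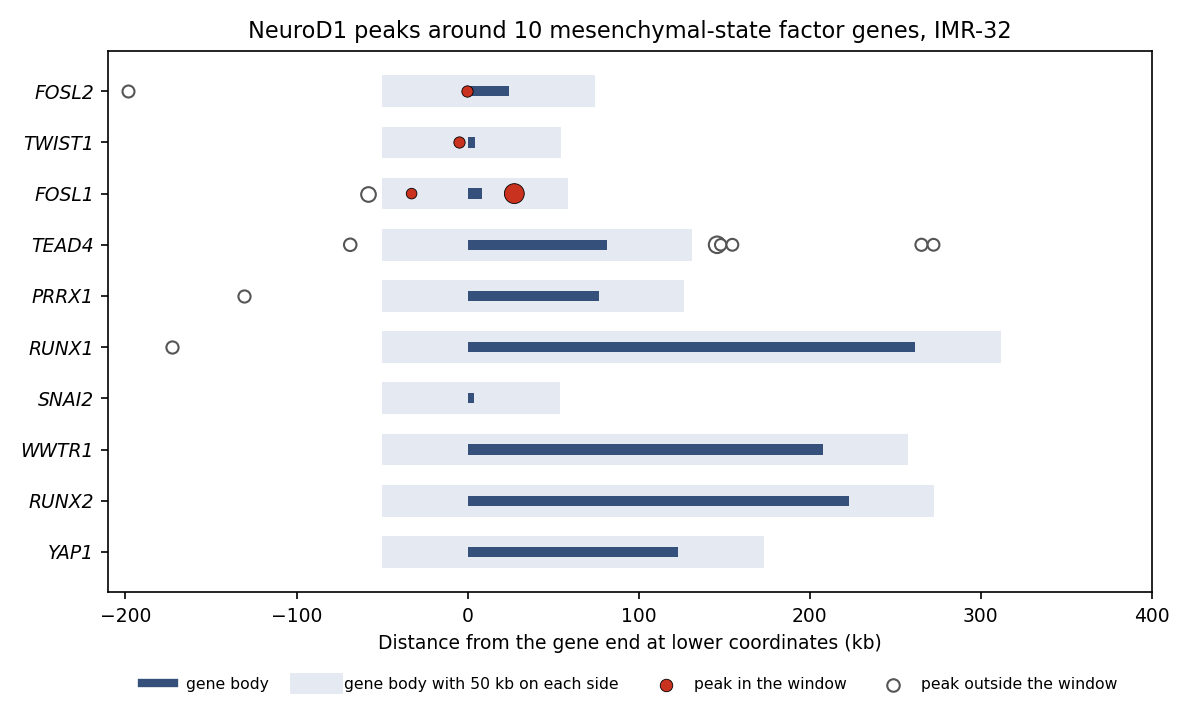
Position of NeuroD1 peak summits around the 10 genes, in kb from the gene end at the lower coordinate, with the gene body in dark blue, the window of 50 kb on each side in pale blue, and the area of a circle rising with the fold enrichment. The 4 filled red peaks lie at FOSL2, TWIST1 and FOSL1, and the nearest open circles, at TEAD4 and FOSL1, lie beyond 50 kb.

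FOSL1 and FOSL2 encode Fra-1 and Fra-2, which pair with JUN proteins to form the AP-1 factor. The FOSL2 peak (chr2:28392607-28392858, hg38) was 252 bp wide and shared 1 base with the gene, so its call as an overlapping peak rests on that base. Its summit lay 106 bp upstream of the start of the gene, and the peak also overlapped the antisense transcript FOSL2-AS1. Fold enrichment divides the pileup at the summit by the background there, after adding 1 to both, and for FOSL2 it came to 5.56 at a −log10 q of 5.59. This rested on 16 ChIP reads at the summit, with a 95% exact Poisson interval from 9.15 to 26.0, and a background of 2 reads. With that background held fixed, the interval of the reads gives a fold enrichment from 3.32 to 8.82. The FOSL2 peak ranked 4878 of 6183 by fold enrichment, and the median of the list was 6.79. The FOSL2 promoter was therefore covered by a peak in the lower part of the list.

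The FOSL2 window printed above had a GC content of 68.7% and was covered by the peak over 251 of its 300 bases. Its only E-box, with the letters CACATG at bases 200 to 205, lay within 100 but not within 50 bases of the summit. It held no CAGATG or CAGCTG on either strand.

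In the window of FOSL1, a gene of 8.50 kb on chromosome 11 with 10 other protein-coding genes in its window, there were 2 peaks and both lay nearer to other genes. The stronger one (chr11:65919037-65919654) was 618 bp wide and 27.5-fold enriched, at a −log10 q of 67.0. It had 56 ChIP reads at the summit, with an interval from 42.3 to 72.7 of the same kind. Its background was 1.04, the lowest value of the list, which 33.8% of all peaks had. By fold enrichment this peak came at place 33 of all peaks and by −log10 q at place 52, and it was the strongest peak of this set. It lay 18.5 kb from FOSL1 and overlapped C11orf68 and DRAP1, neighbouring genes read in opposite directions, and its summit was 65 bp upstream of the DRAP1 start. DRAP1 is a corepressor that binds the general transcription repressor DR1.

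The DRAP1 window was covered by this peak over all 300 bases, had a GC content of 79.0% and held no CANNTG. The C11orf68 window on the other strand, which was covered over 276 bases, held none either. The second FOSL1 peak (chr11:65859266-65859428) lay 32.6 kb from the gene on the other side and 246 bp from MUS81, which encodes a DNA repair nuclease. It was 4.25-fold enriched at a −log10 q of 2.47, with 12 ChIP reads (6.20 to 21.0) against a background of 2, and ranked 5892. The fold enrichments of these peaks, with intervals of 20.9 to 35.5 and 2.36 to 7.18 at a fixed background, did not overlap. A further peak, at SNX32 with a fold enrichment of 12.7, lay just outside the window at 58.1 kb. No peak overlapped FOSL1 or lay within 10 kb of it.

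TWIST1 is a basic helix-loop-helix factor of mesoderm and neural crest that drives epithelial-mesenchymal transition. The peak in its window (chr7:19108030-19108177) was 148 bp wide and lay 4.87 kb from the gene, inside the uncharacterised RefSeq gene LOC124901597, and TWIST1 was the nearest protein-coding gene. It was 5.48-fold enriched at a −log10 q of 4.17, from 12 ChIP reads (6.20 to 21.0) against a background of 1.33. The interval of the reads gives a fold enrichment from 3.04 to 9.25, which overlaps that of the FOSL2 peak, and the order of these peaks cannot be told from their reads. By fold enrichment the TWIST1 peak ranked 4983, and by −log10 q it ranked 5398.

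Among the 4 peaks, the median fold enrichment was 5.52 and the range 4.25 to 27.5. Only the DRAP1 peak was above the median of the list, and the other 3 had 12 or 16 reads, against a median of 17 over all peaks.

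**Figure D2:**
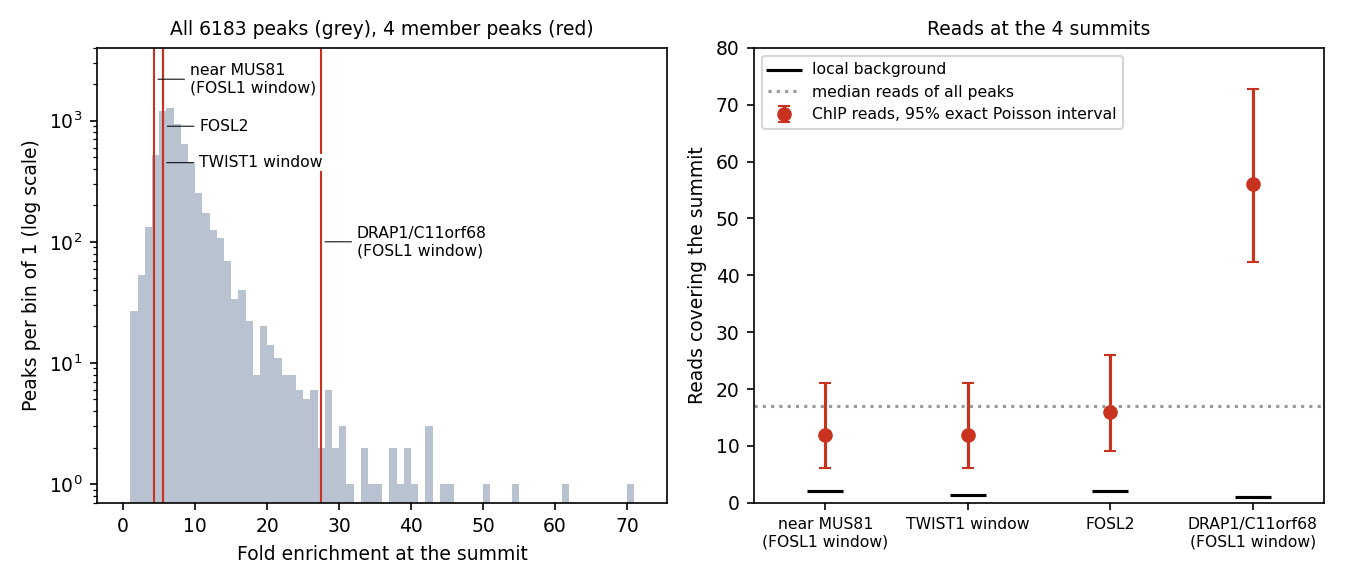
Left, number of peaks by fold enrichment at the summit over all 6183 peaks (grey, log axis), with the 4 peaks of the set as red lines. Right, ChIP reads over each of the 4 summits with 95% exact Poisson intervals, the local background as a black bar and the median reads of all peaks (17) as a dotted line, which the DRAP1 peak with 56 reads exceeds.

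The other factors of epithelial-mesenchymal transition and the homeobox factor had no peak in their windows. PRRX1, a paired-related homeobox factor of limb and craniofacial mesenchyme, lay 131 kb from its nearest peak, which overlapped GORAB and had a fold enrichment of 7.15. SNAI2, a zinc finger repressor of E-cadherin known as Slug, lay 335 kb from the nearest peak. That peak overlapped LOC101929268 and had a fold enrichment of 9.43 with 19 reads. The PRRX1 promoter window held no CANNTG, and its GC content of 53.0% was below the median of 58.7% over all 34961 promoter windows.

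RUNX1 and RUNX2, runt-domain factors of blood and bone development, are long genes of 262 kb and 223 kb, and no peak lay inside either. The nearest peak to RUNX1 lay 172 kb away in RCAN1 with a fold enrichment of 7.23, and that to RUNX2 lay 515 kb away in SUPT3H with a fold enrichment of 7.91. Both RUNX2 promoter windows in RefSeq held CANNTG, and the second also held CAGCTG at bases 53 to 58 and 274 to 279. The single RUNX1 window, with a GC content of 72%, held none. The partner subunit CBFB and the other family member, RUNX3, had no peak within 50 kb either, with the nearest at 145 kb and 154 kb.

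YAP1 and WWTR1 encode the coactivators YAP and TAZ, which the Hippo kinases keep out of the nucleus, and TEAD4 is one of the DNA-binding partners that carry them. YAP1 lay farthest from any peak of the 10 genes, at 1.30 Mb, and 93.0% of protein-coding genes had a closer peak. WWTR1, a gene of 208 kb, lay 382 kb from its nearest peak, which had a fold enrichment of 8.20. TEAD4 lay nearest to the limit of the window, with a peak in TSPAN9 at 64.3 kb that had a fold enrichment of 17.5, 47 reads and a rank of 129. The other peaks between 50 and 100 kb from TEAD4 lay in TSPAN9 at 66.5 and 73.4 kb and in TULP3 at 68.5 kb, with fold enrichments of 5.80, 6.51 and 7.85. With 100 kb in place of 50 kb, TEAD4 would be the only member gained.

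**Figure D3:**
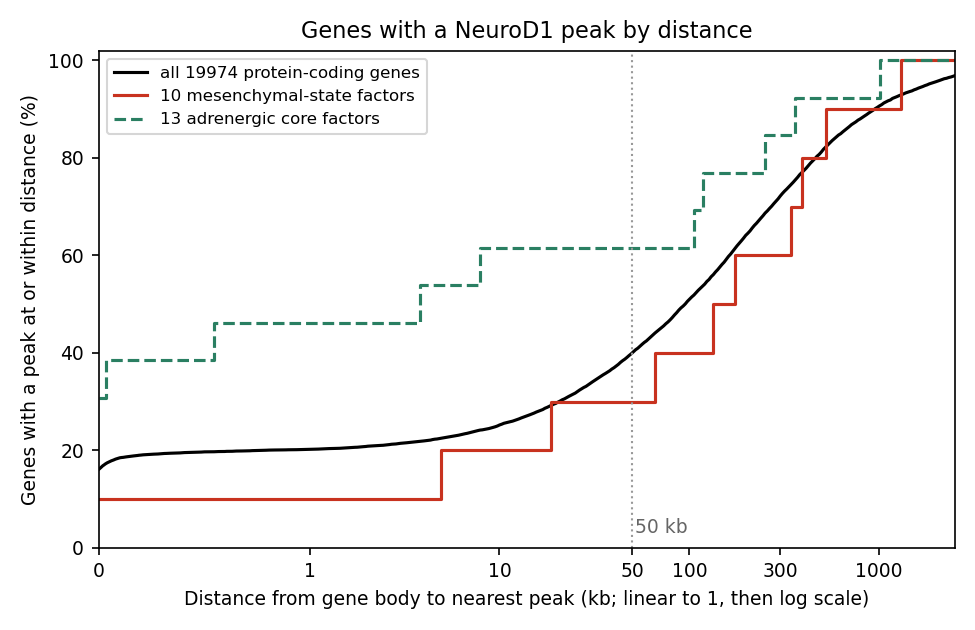
Share of genes with a NeuroD1 peak at or within a given distance of the gene body (horizontal axis in kb, linear to 1 and logarithmic beyond), for the 10 mesenchymal-state factors (red), 13 adrenergic core factors (green) and all 19974 protein-coding genes (black). At 50 kb, the dotted line, the shares are 30.0%, 61.5% and 40.0%.

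The length and the neighbours of the genes were set beside these counts. The 6 members of at least 50 kb, which were PRRX1, RUNX1, RUNX2, YAP1, WWTR1 and TEAD4, all lacked a peak. Among the 6258 protein-coding genes of that length, 41.9% had a peak within 50 kb and 24.9% had one that overlapped the gene. FOSL1 was the only member with more than 5 other protein-coding genes in its window. Of all genes with such a window 62.5% had a peak, against 36.8% of genes with at most 5 neighbours, and the part of gene density in the FOSL1 count was not tested.

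The sequences of the member promoters were set beside their peaks, but with a peak at 1 window only, a difference by sequence could not be judged. RefSeq promoter windows were at hand for 6 members, with 8 windows in all, of which that of FOSL2 was overlapped by a peak, against 8.36% of all windows. FOSL1, SNAI2, TWIST1 and TEAD4 had no entry. CANNTG was found in 5 of the 8 windows, and in 68.7% of all promoter windows. CAGATG on either strand or CAGCTG, which are among the CANNTG, was found in 2 of the 8 windows and in 29.7% of all windows. Those 2 windows were the second of RUNX2 and the first of WWTR1, and neither was reached by a peak. GC content ran from 37.0% to 76.0% over the 8 windows. Its median was 68% over the 2404 promoter windows with a summit inside and 57.3% over the 32040 that no peak overlapped, and the windows of RUNX1, YAP1 and the second start of RUNX2 were above both without a peak.

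Over all promoter windows that held a summit with 50 bases on each side, 27.1% of 1638 summits had a CANNTG in those 101 bases and 12% had CAGATG or CAGCTG. In the central 101 bases of all 34961 promoter windows, the shares were 33.0% and 10.7%. The absence of these letters at the FOSL2 and DRAP1 summits was therefore the more frequent case among promoter summits. Base composition differs between these groups of windows, and its part in the shares was not tested. These shares cover summits in promoter windows only. For the NeuroD1 binding sites as a whole, the paper reports an enrichment of NeuroD1 motifs.

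The relatives and partners of these factors were described in lists. Among 68 genes in 6 lists, 32 had a peak within 50 kb (47.1%) and 17 had one that overlapped the gene (25%), against 40.0% and 16.1% of protein-coding genes. Neighbouring genes in a list can share a peak, as ATF3 and BATF3 did, and no list was tested. The lists were chosen with earlier results of these data known, and the part of gene density in their counts was not tested.

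Of 8 AP-1 partners, 7 had a peak within 50 kb and 4 had one that overlapped the gene. These encode the JUN, FOS and ATF proteins with which Fra-1 and Fra-2 share a family. JUND had 5 peaks in its window, of which 3 overlapped the gene, and the highest fold enrichment was 10.8. JUN had 1 peak, which overlapped it, with a fold enrichment of 7.41 and 22 reads. The strongest peaks in the windows of FOS, ATF3 and BATF3 had fold enrichments of 9.64, 10 and 10 and lay 41.1, 47.1 and 18.3 kb from the genes. The strongest peak in the window of JUNB lay 8.46 kb away in PRDX2 and THSD8, and that of FOSB 32.1 kb away in VASP. ATF3 had 5 peaks in its window, of which 2 overlapped the gene. A promoter window overlapped by a peak was found for JUN, JUNB, JUND and FOS, and BATF had no peak within 50 kb.

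Of the 16 genes of the Hippo pathway and of TEAD partners, 9 had a peak within 50 kb and 5 had one that overlapped the gene. The other TEAD genes all had a peak in the window, unlike TEAD4. TEAD3 had 3 peaks, of which the strongest overlapped the gene with a fold enrichment of 17.9, 42 reads and a rank of 122. TEAD1 had 5 peaks, of which 4 overlapped the gene, with a highest fold enrichment of 9.64. The peak near TEAD2 lay 41.3 kb away in KASH5, with a fold enrichment of 8.48. STK3, one of the Hippo kinases, had an overlapping peak with a fold enrichment of 8.50. NF2, the tumour suppressor upstream of these kinases, had 4 peaks with a highest fold enrichment of 8.20, and both of its promoter windows were overlapped by a peak. The kinases LATS2 and STK4, the adaptor SAV1 and the cofactor VGLL4 had none in their windows.

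Of 5 further regulators of epithelial-mesenchymal transition, PRRX2 and SNAI1 had a peak that overlapped the gene, and ZEB1, ZEB2 and TWIST2 had none within 50 kb. PRRX2, the relative of PRRX1, had 2 overlapping peaks, the stronger with a fold enrichment of 8.60 and 18 reads. In the window of SNAI1, the strongest of 3 peaks had a fold enrichment of 17.3 and lay 46.5 kb away in RNF114. Of 25 other factors of the mesenchymal state, 9 had a peak within 50 kb and 16 did not. The strongest peaks of this list lay 41.7 kb from MEF2D with a fold enrichment of 19.1, 31.9 kb from ID1 with 15.9, in ELK4 with 11.7 and 43 bp from TBX18 with 9.15, where TBX18 is a T-box factor and ID1 an inhibitor of basic helix-loop-helix factors.

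**Figure D4:**
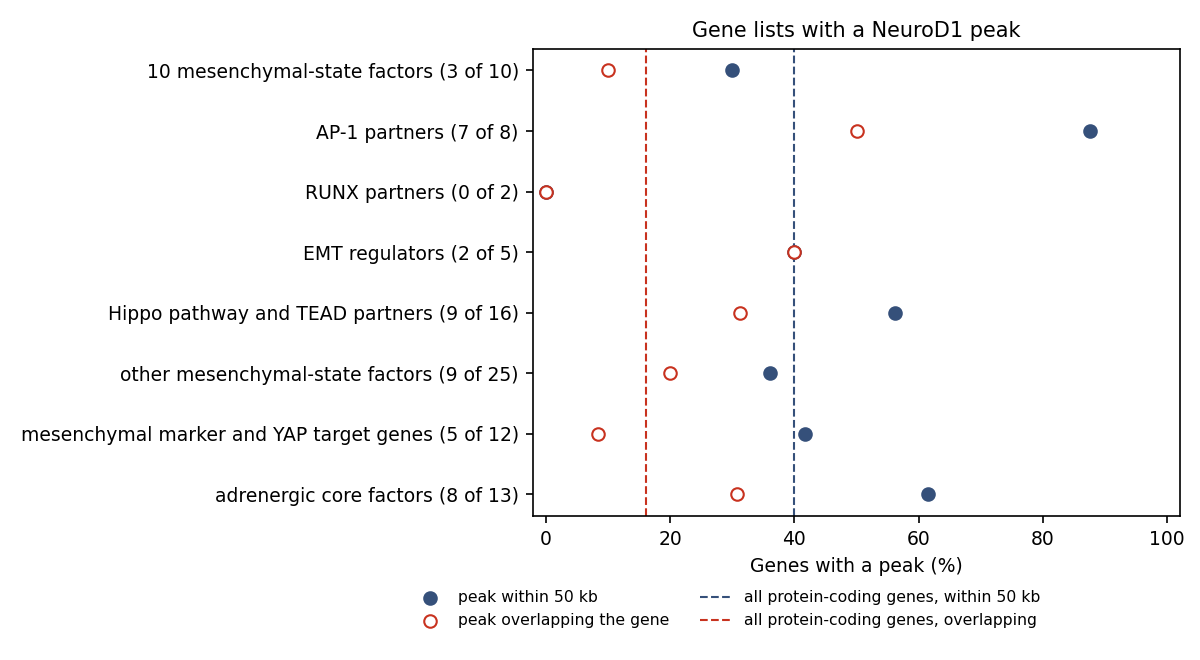
Percentage of genes with a NeuroD1 peak within 50 kb (filled points; counts beside the names) and with a peak that overlaps the gene (open points), for the 10 factors and 7 lists, with the shares of all protein-coding genes as dashed lines (40.0% and 16.1%). The 10 factors lie below both lines at 30.0% and 10%, and the AP-1 partners lie above both at 87.5% and 50%.

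Of the 13 adrenergic core factors, 8 had a peak within 50 kb (61.5%) and 4 had one that overlapped the gene (30.8%). The shares of all protein-coding genes were 40.0% and 16.1%. Among the strong peaks in the windows of these 13 factors was that 27.3 kb from HAND1 with a fold enrichment of 12. Others lay in INSM1 with 8.60 and in KLF7 with 7.71. GATA2, GATA3, ISL1 and TFAP2B were among the genes with none in the window. A promoter window overlapped by a peak was found for 1 of the 8 adrenergic factors with such a window, PHOX2A, and for 1 of 6 members. The difference between 8 of 13 and 3 of 10 genes was not tested. At NEUROD1 itself, a peak lay 180 bp beside the gene with a fold enrichment of 6.54 and 19 reads, and its interval of 4.07 to 10 overlapped those of the FOSL2 and TWIST1 peaks.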

How the data were processed

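The deposited NeuroD1 ChIP-seq peak list of IMR-32 cells, from 1 library, was used. The submitters' processing notes name BWA 0.7.17, MACS2 2.2.7 and hg38, and the peak names name MACS3. Whether the input served as control is not given in the sources used here, nor is the total number of reads. The authors deposited for each peak its fold enrichment at the summit (a ratio), −log10 values of p and q, and a score made from the −log10 q. The highest q was 0.0414.

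The −log10 p and the fold enrichment were inverted through the MACS Poisson model to give ChIP reads and background under each summit. The weight of 1 read in the pileup, 0.98, was read from the spacing of the solved values at the lowest background of 1.04. All peaks had 1 solution (100% of 6183, pileup within 0.01 plus rounding). On 300 simulated peaks made with the same model, read weight and lowest background, the solver recovered 100%. This checks the inversion only, not whether the deposited values were made in that way.

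Genes and promoter windows came from RefSeq GRCh38.p14, the same build as hg38, matched by symbol. No genome sequence was used, so E-boxes were sought only in promoter windows. The gene with the nearest body was named beside each peak. The members and lists were chosen with earlier results of these data known. Named genes are all members, the genes nearest to their peaks, NEUROD1 and up to 4 genes per list with the highest fold enrichment, and other genes were named after their values were seen. Some genes of the lists are not reported here by name. Alternatives were stricter peak lists, the summit in place of the interval, other windows and assignment to the nearest gene. The software was Python 3.11.15 with scipy 1.17.1, numpy 2.4.6, matplotlib 3.10.9 and pandas 2.3.3.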

Additional observations from a re-analysis of the deposited data

How the results depend on the processing

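Of 55 alternative values, 32 kept the reported value within 1.5 times, or within its exact interval for the share of protein-coding genes, and 23 did not. Some of the 32 could not have differed, so their number is no measure of stability. The FOSL2 and DRAP1 peaks, and with them the highest fold enrichment of 27.5, pass the cutoffs of 5 on −log10 q and fold enrichment. CAGATG and CAGCTG are among the CANNTG, which neither of these summits had within 50 bases. Among peaks whose −log10 q was 5 or more, the 4 member peaks became 2, since the peaks at TWIST1 and MUS81 drop out. Their median fold enrichment was 16.5, and the share of protein-coding genes with a peak was 33.8%. Members with a peak went from 3 to 2 there, with 10 kb and with the nearest protein-coding gene. These counted as kept only because they lay exactly at the limit of 1.5 times. Requiring at least 5-fold enrichment gave a share of 37.5%. With 3 kb, 1 member and 1 peak were left, the highest fold enrichment was 5.56, and the share was 21.4%. With 10 kb there were 2 peaks, a highest value of 5.56 and a share of 25.2%, and with 100 kb there were 9 peaks and a share of 51.0%. These follow from the width of the window. When a peak counted only for its nearest gene of any kind, 1 member, 1 peak, a highest fold enrichment of 5.56 and 20 listed genes were left. With the nearest protein-coding gene, 2 peaks and a highest fold enrichment of 5.56 were left. The number of members with an overlapping peak was 0 by the summit, because the FOSL2 peak shares 1 base with the gene. Within 100 bases of the summit, 1 of the 2 summits had a CANNTG. For genes of at least 50 kb the share was 41.9% and for genes with at most 5 neighbours 36.8%, and these alternatives were chosen after seeing the data. No paired analysis was possible because the series has a single ChIP library. The low reads at FOSL2, TWIST1 and MUS81 do not fix their order beyond counting error.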

Other observations

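Of 12 mesenchymal marker and YAP target genes, 5 had a peak within 50 kb and 1 of them, the hyaluronan receptor CD44, had a peak that overlapped the gene, with a fold enrichment of 7.49 and 16 reads. The peak in the window of AXL, a receptor tyrosine kinase, lay 2.29 kb beside that gene and inside HNRNPUL1, with a fold enrichment of 7.63. The strongest peak of this list had a fold enrichment of 13.7 and lay 31.2 kb from AMOTL2, which was its nearest protein-coding gene. COL1A1, which encodes a chain of type I collagen, had 5 peaks in its window and none that overlapped it, and the strongest, with a fold enrichment of 11, lay nearest to PPP1R9B among protein-coding genes. VIM, the intermediate filament vimentin, and the YAP target genes CCN1, CCN2 and ANKRD1 had no peak in their windows, with the nearest at 263, 321, 320 and 489 kb. The shares of this list, 41.7% within 50 kb and 8.33% overlapping, stand beside 40.0% and 16.1% of protein-coding genes.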
